A study of Mus musculus with 18 samples.

Results

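The 10 genes below handle iron, zinc and copper in the acute-phase response and were followed in cultured mouse hepatocytes given interleukin 6 (IL-6) and then hepatocyte growth factor (HGF). They were chosen by name: Hamp, Hamp2, Lcn2, Hp, Hpx and Trf for iron, Slc39a14, Mt1 and Mt2 for zinc, and Cp for copper. Of these 10 genes, 9 were measured, among 18193 genes on the array in all. They had 22 probe sets, and 5 of the 9 genes had more than 1. The only probe set for Trf, the iron carrier transferrin, also names another gene, so Trf has no value here.

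The cells were primary hepatocytes from male C57BL/6N mice aged 8 to 12 weeks, from 1 animal or a pool of up to 3, plated on collagen I. Dishes were kept 24 h in serum-free medium with 100 nM dexamethasone and, before stimulation, 4 h in starvation medium without it. The 6 controls (-5, 0, 4, 8, 12 and 24 h) were untreated, and by inference from these hours the -5 h control was taken before starvation. Stimulated dishes received 40 ng/ml IL-6 at 0 h (4 arrays, 1 to 4 h), and from 4 h also 40 ng/ml HGF (8 arrays, at 5, 6, 7, 8, 9, 10, 12 and 24 h). Each hour was 1 array, no array after 4 h held IL-6 alone, and none held HGF alone, so from 5 h on the part of each factor and of time under IL-6 cannot be told apart. Nothing in the labels says that dishes came from separate animals, so the p-values measure the spread between dishes and hours of what may be 1 preparation. The number of arrays limits the precision.

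Hepcidin, the peptide made from Hamp, binds the iron exporter ferroportin and causes its loss from the cell surface, which holds iron inside cells and lowers iron in plasma. The gene has a pair of well-known inputs: IL-6 acts through STAT3, and iron acts through bone morphogenetic proteins (BMPs), their co-receptor hemojuvelin and SMAD proteins. During inflammation the liver also takes up zinc through the transporter encoded by Slc39a14 and binds it in metallothioneins, and it secretes haptoglobin, hemopexin, lipocalin 2 and the copper protein ceruloplasmin.

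The promoters of the hepcidin and metallothionein pairs are shown because each pair lies close together in the genome while its members gave unlike (hepcidins) or like (metallothioneins) time courses. Whether the probe sets used tell the members of a pair apart was not tested. Each is the 250 bases before the annotated start, from RefSeq on GRCm38.p6, and 7 of the 10 genes had such a sequence. Capitals in the hepcidin promoters mark TTCNNNGAA, the letters of a STAT site, and GGCGCC, the letters of a BMP-responsive site. Hamp lies on the minus strand at chr7:30944030-30944279 and Hamp2 on the same strand at chr7:30924182-30924431, with 1 annotated gene between them.
Hamp: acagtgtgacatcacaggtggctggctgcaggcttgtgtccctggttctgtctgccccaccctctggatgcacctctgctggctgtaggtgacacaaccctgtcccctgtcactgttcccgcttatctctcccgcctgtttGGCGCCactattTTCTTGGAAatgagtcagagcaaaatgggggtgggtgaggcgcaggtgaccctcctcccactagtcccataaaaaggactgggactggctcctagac
Hamp2: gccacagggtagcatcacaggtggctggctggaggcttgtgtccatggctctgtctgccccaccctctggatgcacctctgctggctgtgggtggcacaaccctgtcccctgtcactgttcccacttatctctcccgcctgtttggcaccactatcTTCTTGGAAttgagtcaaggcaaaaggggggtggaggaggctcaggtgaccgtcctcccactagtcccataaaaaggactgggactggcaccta
The STAT letters began 97 bases before the start in Hamp and 94 bases before it in Hamp2. The BMP letters began 109 bases before the start of Hamp and were not in the Hamp2 window. Over 247 aligned bases the promoters shared 227, or 91.9%. Of all 32851 promoter windows of this length, 7.02% held TTCNNNGAA and 9.59% held GGCGCC on either strand. In the metallothionein promoters, capitals mark TGCNCNC on either strand, a loose pattern of the metal response element type in which N is any base. Mt2 lies on the plus strand at chr8:94172368-94172617 and Mt1 at chr8:94178839-94179088, with 0 annotated genes between them.
Mt1: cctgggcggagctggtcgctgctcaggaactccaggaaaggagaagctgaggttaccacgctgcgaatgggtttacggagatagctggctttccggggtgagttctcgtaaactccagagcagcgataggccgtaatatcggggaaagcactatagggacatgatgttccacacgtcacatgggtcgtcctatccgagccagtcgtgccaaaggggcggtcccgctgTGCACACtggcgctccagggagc
Mt2: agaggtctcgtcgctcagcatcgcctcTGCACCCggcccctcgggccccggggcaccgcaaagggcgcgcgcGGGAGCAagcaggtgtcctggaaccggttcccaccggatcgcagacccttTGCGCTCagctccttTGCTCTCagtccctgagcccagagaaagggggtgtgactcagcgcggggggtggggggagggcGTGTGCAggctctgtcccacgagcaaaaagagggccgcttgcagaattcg
There was 1 such match in the Mt1 window, starting 23 bases before the start, and there were 5 in the Mt2 window, from 223 to 50 bases before it. Matches outside these windows were not counted, so these are not counts of each gene's metal response elements. These short letters were in 44.4% of all windows. The letters TTGCNNAA, part of a C/EBP site, were found 216 bases before the start of Lcn2, 200 before that of Hpx, 12 before that of Mt2 and 70 before 1 of the annotated starts of Cp, and in 9.56% of all windows. Before the other Cp start, TGCNCNC was found at 102 and 80 bases. A match describes these letters and is not evidence of binding.

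All values below are log2 expression signals, so a difference of 1 is a 2-fold change, and signals of different genes are not compared. A gene with several probe sets is given by its brightest. Array medians lay between 5.47 and 5.57, and each array's mean correlation with the others between 0.985 and 0.994. The hepatocyte label was checked against 10 markers: Alb ranged from 14.67 to 14.89, and the mean of the markers was 12.16 to 13.00 in the controls from 0 h on, 12.85 to 13.01 under IL-6 and 11.71 to 12.71 under IL-6 plus HGF. Kupffer cell markers averaged 7.01 to 7.78 in those controls, 7.05 to 7.26 under IL-6 and 6.96 to 7.34 under IL-6 plus HGF. In the IL-6 comparison 11 of the 12 Kupffer markers had a negative difference (median -0.52, none called), and at 8, 12 and 24 h all 12 did (median -0.17, 1 called). At those hours 9 of 10 liver endothelial markers were negative (median -0.37, 2 called lower), with means of 6.77 in the control and 6.21 in the stimulated dish at 24 h. Of the hepatocyte markers 9 of 10 were negative there (median -0.22, 3 called lower and 1, Fgb, higher), with means of 12.16 and 11.71 at 24 h. Beside these counts, 6.46% of all genes were called lower and 2.53% higher at those hours, and 0.00% lower in the IL-6 comparison. The 8 measured neutrophil markers averaged 4.83 to 5.14 on every array. Whether other cells took part in any result was not tested, and in such bulk RNA fewer cells of a type and less RNA per cell cannot be told apart. Socs3, the feedback inhibitor of IL-6 signalling, was higher by 3.51 ± 0.32 (SE) under IL-6 than in the controls at 0 and 4 h (limma, adjusted p = 2.44e-05), and Cebpd, an acute-phase transcription factor, by 2.76 ± 0.21 (adjusted p = 2.01e-06).

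Hepcidin RNA was above the control of the same hour under IL-6 at 4 h and under IL-6 plus HGF at 8 and 12 h. At 24 h it was lower under IL-6 plus HGF than in the control. Hamp signals in the controls were 7.02 at -5 h, 7.21 at 0 h, 6.07 at 4 h, 6.18 at 8 h, 6.35 at 12 h and 9.21 at 24 h. Under IL-6 they were 7.57, 8.01, 7.75 and 8.00 at 1, 2, 3 and 4 h. Under IL-6 plus HGF they were 8.39 at 5 h, then 7.81, 7.86, 7.93, 7.84 and 7.94 from 6 to 10 h, 7.58 at 12 h and 8.45 at 24 h. All 12 stimulated arrays were above the controls at -5 to 12 h, and the control at 24 h was above every stimulated array. The stimulated array exceeded its control by 1.93 at 4 h, 1.75 at 8 h and 1.23 at 12 h, and lay 0.76 under it at 24 h, a difference of -0.76. The other Hamp probe set gave 2.09, 2.26, 1.58 and -0.75.

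In the fitted comparisons this pattern left wide intervals. Hamp averaged 7.83 under IL-6 against 6.64 in the controls at 0 and 4 h, a difference of 1.19 ± 0.57 (SE; 95% interval -0.01 to 2.40; n = 4 against 2; limma, adjusted p = 1). This SE came from a fit of 17 arrays, which took in the controls at 8, 12 and 24 h (6.18, 6.35 and 9.21). The Hamp SD was 0.21 under IL-6 and 0.30 under IL-6 plus HGF, against 1.31 in the controls from 0 to 24 h. The 24 h control, outside this comparison, thus entered its interval and adjusted p. The Hamp difference was 1.76 without the control at 0 h and 0.62 without that at 4 h. Over 8, 12 and 24 h it averaged 7.99 with IL-6 plus HGF against 7.25 in the controls, a difference of 0.74 ± 0.43 (interval -0.28 to 1.76; n = 3 pairs; limma, adjusted p = 0.335). Without the 24 h pair the difference was 1.49 ± 0.14 (limma, adjusted p = 0.00585, with 1 residual degree of freedom), so the call turns on that hour. Between 0 and 24 h the untreated control itself went up by 1.99, or 3.98-fold. The slope per doubling, on a scale of hour plus 1, was 0.24 ± 0.27 in the controls (0 to 24 h; limma, adjusted p = 0.65), and -0.27 ± 0.07 without the array at 24 h (adjusted p = 0.0989).

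**Figure D1:**
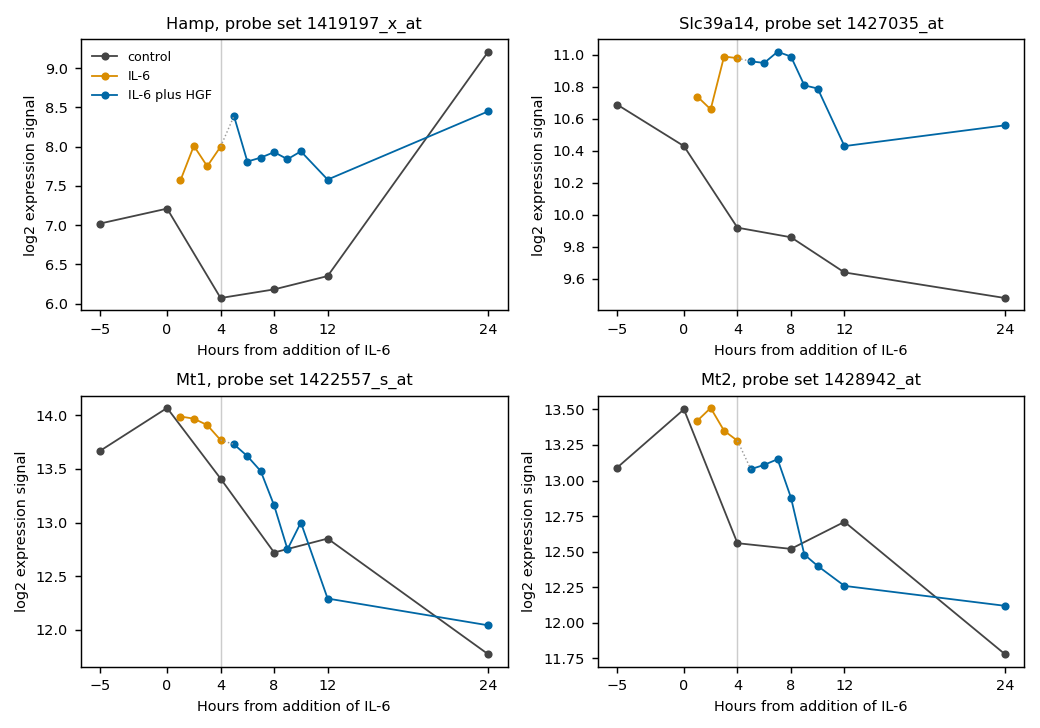
Log2 expression signal of Hamp, Slc39a14, Mt1 and Mt2 on each of the 18 arrays (1 point per array, no error bars) against hours from the addition of IL-6. Colours give control, IL-6 and IL-6 plus HGF, and the vertical line marks the addition of HGF at 4 h. The Hamp control at 24 h (9.21) is the highest Hamp value, the stimulated Slc39a14 values from 4 h on stay above the controls of the same hour, and both metallothioneins end lowest at 24 h.

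Genes of the BMP arm were read beside Hamp at 24 h, and Id1, Id3 and Smad6, which BMPs are known to induce, were picked after their values were seen. In the controls Id1 was 6.93, 6.48, 6.72, 7.29 and 9.51 at 0, 4, 8, 12 and 24 h, so its highest value was again the untreated dish at 24 h. With IL-6 plus HGF it was 8.87 at that hour, and the stimulated minus control differences were 0.60, 0.48, 0.30 and -0.64 at 4, 8, 12 and 24 h. Id3 stood at 9.11 in the control and 8.39 in the stimulated dish at 24 h, and Smad6, an inhibitory SMAD, at 5.90 and 5.61. Hjv, which encodes hemojuvelin, was 7.35 in the control at 24 h and 6.21 in the stimulated dish. Other genes of the arm differed. Smad7, another inhibitory SMAD, was 8.26 at 0 h and 8.19 at 24 h in the controls, and 8.85 in the stimulated dish at 24 h. Atoh8 and Bambi had control slopes of 0.04 and 0.08 (limma, adjusted p = 0.429 and 0.189). In the control trend 2 of the arm's 22 measured genes were called higher and 1 lower, beside 2.14% and 1.47% of all genes. The part of the BMP arm in the Hamp values was not tested.

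**Figure D2:**
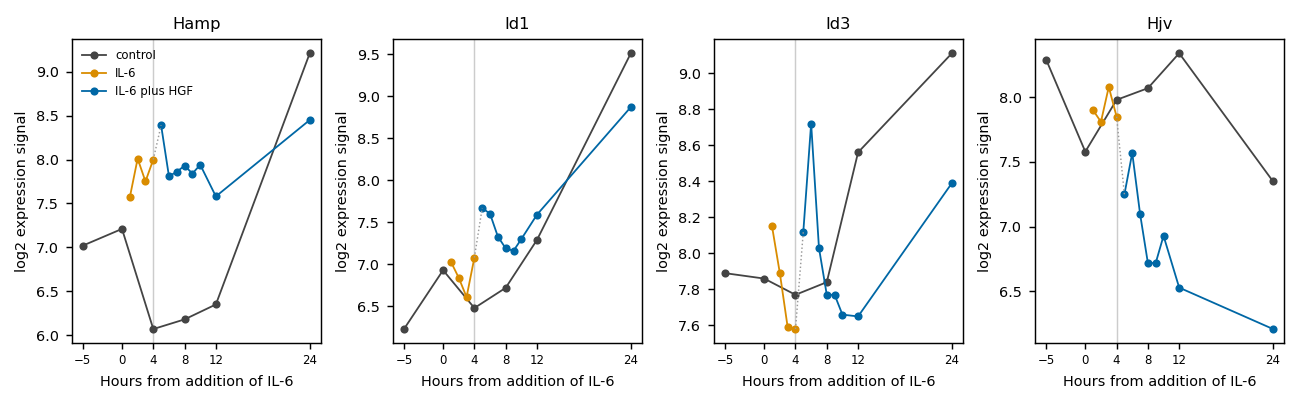
Log2 expression signal of Hamp, Id1, Id3 and Hjv on each array (1 point per array, no error bars) against hours from the addition of IL-6, with control, IL-6 and IL-6 plus HGF in separate colours and the addition of HGF marked at 4 h. Hamp and Id1 are both highest in the untreated dish at 24 h (9.21 and 9.51), and Hjv is lower than its control at 8, 12 and 24 h in the stimulated dishes.

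The second hepcidin gene, Hamp2, moved within a narrower band. Its controls were 7.89, 7.85, 7.62, 7.38, 7.03 and 7.54 at -5, 0, 4, 8, 12 and 24 h. Under IL-6 it was 8.08, 8.15, 7.84 and 7.62 at 1 to 4 h, and under IL-6 plus HGF it ran from 7.36 to 7.95 (median 7.57, n = 8). The groups overlapped, and the differences at 4, 8, 12 and 24 h were 0.00, 0.24, 0.34 and -0.17. Over the last 3 of those hours the difference was 0.13 (95% interval -0.13 to 0.40; limma, adjusted p = 0.498). A second Hamp2 probe set stayed between 4.56 and 5.05 and correlated with the first at r = 0.12 over 18 arrays. Hamp and Hamp2 correlated at r = 0.22.

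Lcn2, Hp and Hpx, which encode secreted proteins, were near the top of the signal scale on every array. Lcn2, which binds bacterial siderophores, was 14.13, 14.14, 14.01, 13.83 and 13.59 in the controls from 0 to 24 h and 14.05 to 14.08 under IL-6. Under IL-6 plus HGF it went from 14.11 at 5 h to 13.68 at 24 h. Stimulated and control arrays of the same hour differed by -0.06, -0.03, 0.03 and 0.09. Hp, whose product haptoglobin binds free hemoglobin, ranged from 14.27 to 14.59, and Hpx, whose product hemopexin binds heme, from 14.44 to 14.58. At 8, 12 and 24 h the difference was -0.13 for Hp (95% interval -0.34 to 0.08) and -0.04 for Hpx (-0.21 to 0.13).

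The highest value in the table was 15.05, and the mean signal lay 0.56 under it for Hpx, 0.64 for Hp and 1.07 for Lcn2. The 80 genes with the highest means had a median range of 0.27 over the arrays, against 0.59 for all genes. Among the bright hepatocyte markers, Fgb (mean 14.19) was above its control by 0.53, 0.53, 0.56 and 0.65 at 4, 8, 12 and 24 h. Alb (mean 14.83) differed by 0.00, -0.04, -0.05 and -0.04. Whether brightness limited the differences of Lcn2, Hp and Hpx was not tested.

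**Figure D3:**
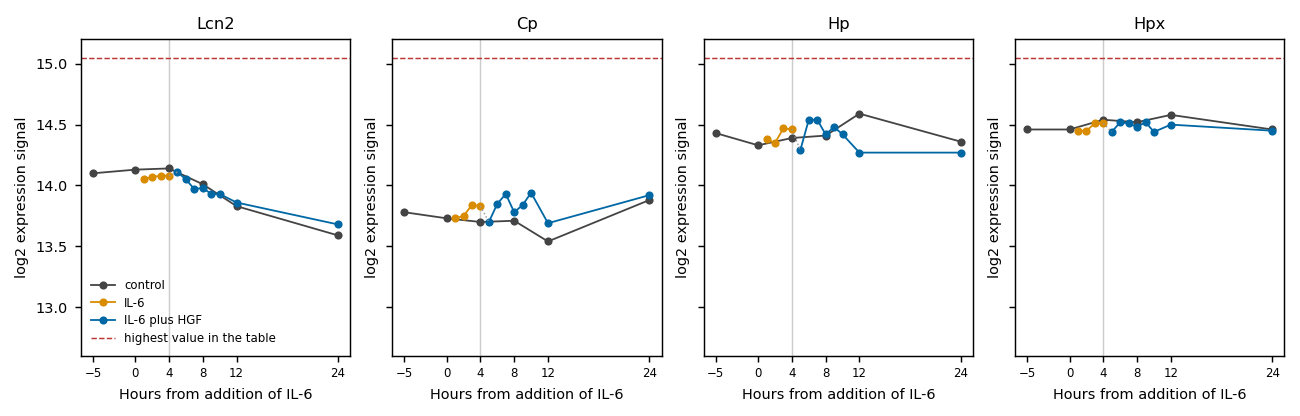
Log2 expression signal of Lcn2, Cp, Hp and Hpx on each array (1 point per array, no error bars) against hours from the addition of IL-6, on a shared vertical axis, with the highest value in the table (15.05) as a dashed line. Lcn2 goes down with time in control and stimulated dishes alike, to 13.59 and 13.68 at 24 h, while Hpx stays between 14.44 and 14.58.

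Slc39a14, the zinc and non-transferrin iron importer ZIP14, was higher than its control at every matched hour. Its controls were 10.69, 10.43, 9.92, 9.86, 9.64 and 9.48 at -5, 0, 4, 8, 12 and 24 h. Under IL-6 it was 10.74, 10.66, 10.99 and 10.98 at 1 to 4 h. Under IL-6 plus HGF it was 10.96, 10.95, 11.02, 10.99, 10.81, 10.79, 10.43 and 10.56 from 5 to 24 h. Every IL-6 array lay above the controls from 0 h on, and the lowest array of IL-6 plus HGF, 10.43, met the highest of those controls. Stimulated dishes exceeded the control of the same hour by 1.06 at 4 h, 1.13 at 8 h, 0.79 at 12 h and 1.08 at 24 h, and all 4 probe sets were higher at all 4 hours. The dimmest was above its control by only 0.10 at 24 h, against 0.88 to 1.08 for the others. Fitted on its own over 8, 12 and 24 h it gave 0.64 ± 0.17 and was not called (limma, adjusted p = 0.0877).

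Over 8, 12 and 24 h Slc39a14 was 2-fold higher, at 10.66 against 9.66 in the controls, a difference of 1.00 ± 0.09 (SE; 95% interval 0.78 to 1.22; n = 3 pairs; limma with hour as a block, adjusted p = 0.00319). It was the only 1 of the 9 genes called in this comparison, in which 2.53% of all genes were called higher, 6.46% lower and 9.00% in all. Of the 1637 genes called, 28.2% were higher, against 34.7% after quantile normalization of all probe sets, 38.8% after quantile normalization over 1 probe set per gene and 19.3% after centring each array. The 9 genes had a median difference of 0.08, beside 0.010 over all genes. Without the hour block the Slc39a14 difference was the same and its adjusted p was 0.058.

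In the first 4 hours none of the 9 genes was called, where 0.0220% of all genes (4) were called higher and 0.00% lower, and 656 genes had an unadjusted p under 0.05. Slc39a14 differed by 0.67 ± 0.17 (10.85 against 10.17; 95% interval 0.30 to 1.04; limma, adjusted p = 0.731), and by 0.93 without the control at 0 h or 0.42 without that at 4 h. Against all 5 controls from 0 h on the difference was 0.98 and passed (limma, adjusted p = 0.0167). Over all genes 20 were called higher and 2 lower in that setting. It takes in the controls at 8, 12 and 24 h, when no array held IL-6 alone. The Slc39a14 controls went down from 10.43 at 0 h to 9.48 at 24 h, so stimulus and hour differ together there. From the IL-6 hours to the later hours the Slc39a14 difference changed by 0.48 ± 0.22 (limma, adjusted p = 0.625). None of the 9 was called for this change, beside 0.0110% of genes higher and 0.0110% lower. The -5 h control, 10.69, stood above the later controls, with a difference of 0.82 ± 0.32 (n = 1 against 5; limma, adjusted p = 0.838; 0.00% of genes called and 1019 with an unadjusted p under 0.05). Its SE rests on the later controls alone, which went down with time, from 10.43 to 9.48.

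**Figure D4:**
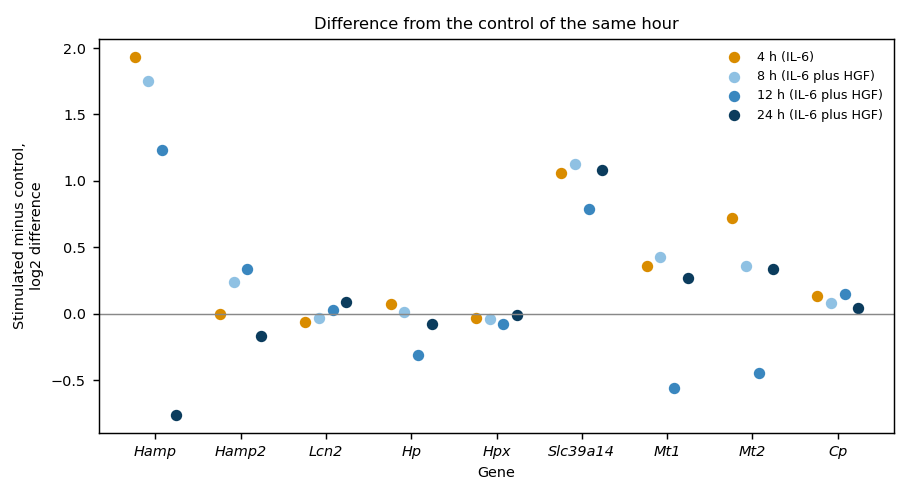
Stimulated minus control log2 difference of each of the 9 measured genes at 4 h (IL-6) and at 8, 12 and 24 h (IL-6 plus HGF), 1 pair of arrays per point and no error bars. Slc39a14 is between 0.79 and 1.13 at all 4 hours, Hamp goes from 1.93 to -0.76, and Mt1 and Mt2 are below 0 at 12 h only.

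Metallothionein RNA fell with time in culture with or without the cytokines. Mt1 was 13.67, 14.07, 13.41, 12.72, 12.85 and 11.77 in the controls at -5, 0, 4, 8, 12 and 24 h. Under IL-6 it was 13.99, 13.97, 13.91 and 13.77, and under IL-6 plus HGF it went from 13.73 at 5 h through 13.16 at 8 h to 12.29 at 12 h and 12.04 at 24 h. Mt2 was 13.09, 13.50, 12.56, 12.52, 12.71 and 11.78 in the controls, 13.42, 13.51, 13.35 and 13.28 under IL-6, and 13.08 at 5 h, 12.88 at 8 h, 12.26 at 12 h and 12.12 at 24 h with HGF. Between 0 and 24 h the untreated level went down 4.93-fold for Mt1 and 3.30-fold for Mt2. A second, dimmer Mt1 probe set ranged from 5.45 to 7.09, was 6.39, 6.37 and 5.45 in the controls at 0, 12 and 24 h, and had no called trend: its slope was -0.14 in the controls and -0.30 under IL-6 plus HGF (limma, adjusted p = 0.33 and 0.39).

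The slope per doubling of time was -0.83 ± 0.10 for Mt1 and -0.53 ± 0.10 for Mt2 under IL-6 plus HGF (limma, adjusted p = 0.000909 and 0.00669). In the controls it was -0.46 ± 0.07 and -0.32 ± 0.06 (adjusted p = 0.0251 and 0.0439), on a scale of hour plus 1. Slc39a14 also fell in the controls, by 0.20 ± 0.03 per doubling (adjusted p = 0.024). Thus 3 of the 9 genes were called lower in the control trend, beside 1.47% of all genes called lower, 2.14% called higher and 3.61% in all. These calls rest on 5 arrays: none of the 3 was called without the control at 0, 4 or 8 h. Lcn2 had a control slope of -0.11 ± 0.04 (limma, adjusted p = 0.165).

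Under IL-6 plus HGF 3 of the 9 genes were called lower with time, Mt1, Mt2 and Lcn2, beside 4.84% of all genes called lower, 6.27% called higher and 11.1% in all. The Lcn2 slope was -0.19 ± 0.04 (limma, adjusted p = 0.023), and it was not called without the array at 24 h (0.294) or without that at 5 h. Slc39a14 had a slope of -0.24 ± 0.07 (adjusted p = 0.0633) and Hamp2 of -0.22 ± 0.07 (adjusted p = 0.0718). The stimulated and control slopes were compared directly over 4 to 24 h, where none of the 9 was called, beside 0.0989% of all genes in all (0.0385% higher and 0.0605% lower): the difference was -0.23 ± 0.16 for Mt1, -0.26 ± 0.17 for Mt2 and -1.08 ± 0.35 for Hamp (limma, adjusted p = 0.948, 0.946 and 0.513). The Hamp value was -0.08 without the control at 24 h and -1.93 without that at 4 h, and the Mt2 value -0.61 and -0.02. Without the stimulated array at 24 h Hamp gave -1.58, Mt1 -0.52 and Mt2 -0.52, and without the control at 24 h Mt1 gave -0.43. In the 4 IL-6 arrays alone no gene had a called trend (0.00% of genes; 1470 with an unadjusted p under 0.05).

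At matched hours the metallothioneins did not keep 1 direction. Mt1 differed from its control by 0.36, 0.43, -0.56 and 0.27 at 4, 8, 12 and 24 h, and Mt2 by 0.72, 0.36, -0.45 and 0.34. Over the last 3 hours the difference was 0.05 for Mt1 (95% interval -0.39 to 0.49) and 0.08 for Mt2 (-0.31 to 0.47). The dexamethasone of the serum-free medium was withdrawn before 0 h, and glucocorticoids are known to induce metallothioneins. Of 12 glucocorticoid targets, 4 were called lower with time in the controls and none higher, beside 1.47% of all genes lower and 2.14% higher. Over the whole list 8 slopes were negative and 4 positive. Mt2 itself was 1 of the 4 called. The others were the tyrosine-degrading enzyme gene Tat at -0.46 ± 0.05, the phosphatase gene Dusp1 at -0.21 ± 0.04 and the sulfotransferase gene Sult1e1 at -0.64 ± 0.13 per doubling (limma, adjusted p = 0.0164, 0.0437 and 0.0474). With 1 control left out these calls did not always hold: the adjusted p reached 0.0615 for Tat, 0.482 for Dusp1 and 0.0879 for Sult1e1 (limma). The targets Fkbp5 (-0.04), Tsc22d3 (0.06), Klf9 (-0.04), Zbtb16 (0.01), Sgk1 (0.03) and Errfi1 (-0.06) had slopes near 0 that were not called. Per1 (-0.12 ± 0.04) and Pck1 (0.31 ± 0.31) were not called either (limma, adjusted p = 0.178 and 0.621). At 8, 12 and 24 h 4 of the 12 targets were called lower than their controls and none higher, beside 6.46% and 2.53% of all genes. Over the list 8 of these differences were negative and 4 positive. On the 1 array at -5 h all 12 targets were above the mean of the later controls (median 0.79, beside 0.008 over all genes). From -5 to 0 h Mt1 went from 13.67 to 14.07 and Mt2 from 13.09 to 13.50. The part of dexamethasone withdrawal in the metallothionein values was not tested.

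Ceruloplasmin, the main copper protein of plasma and a ferroxidase, changed little on its brightest probe set. Cp was 13.73, 13.70, 13.71, 13.54 and 13.88 in the controls from 0 to 24 h, 13.73 to 13.84 under IL-6 and 13.69 to 13.94 under IL-6 plus HGF. The groups overlapped. The stimulated dish was above its control by 0.13, 0.08, 0.15 and 0.04 at the 4 matched hours, and the difference over the last 3 was 0.09 (95% interval -0.09 to 0.26; limma, adjusted p = 0.502). Of the 8 Cp probe sets, 1 stood apart, with values from 7.46 to 9.97 and differences of 1.99, 1.49, 0.81 and 1.38. Fitted with every probe set on its own it gave 1.22 ± 0.14 (limma, adjusted p = 0.00751). Its signal correlated at r = 0.86 over 18 arrays with that of the nuclear RNA Malat1, as did that of the dimmest Slc39a14 probe set at r = 0.84, against r = 0.47 for the brightest Cp probe set. What these probe sets detect was not tested.

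Around these genes, the iron list held 3 genes called higher and 1 lower at the matched hours, of 19 measured, beside 2.53% of all genes higher and 6.46% lower. Scara5, a ferritin receptor, was higher by 0.77 ± 0.09, the metalloreductase gene Steap2 by 0.73 ± 0.12 and the mitochondrial iron importer gene Slc25a37 by 0.71 ± 0.09, and Slc40a1, which encodes ferroportin, was lower by 0.56, a difference of -0.56 ± 0.09 (limma, adjusted p = 0.00729, 0.0173, 0.00799 and 0.0171). With 1 pair left out, the adjusted p reached 0.0692 for Steap2 and 0.057 for Slc40a1 (limma). The list's median was -0.01. Another Scara5 probe set gave 0.06. In the first 4 hours none of its genes was called, and the metalloreductase gene Steap4 had a difference of 1.53 ± 0.26 (adjusted p = 0.0567). In the control trend 4 were called higher and 1 lower, beside 2.14% and 1.47% of all genes, and Slc40a1 rose by 0.24 ± 0.04 per doubling (limma, adjusted p = 0.0265).

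At 8, 12 and 24 h the BMP and SMAD arm had 3 of its 22 genes called higher and 4 called lower, with a median of -0.04, beside 2.53% and 6.46% of all genes. Hjv fell most, by 1.44 (-1.44 ± 0.13; limma, adjusted p = 0.00319), in both of its probe sets. Id2 was lower (-1.14 ± 0.10), and the inhibitory Smad7 (0.69 ± 0.10) and the BMP receptor gene Acvr1 (1.13 ± 0.08) were higher (adjusted p = 0.00302, 0.0106 and 0.00168). Another Acvr1 probe set gave -0.02. Hjv also went down with time under IL-6 plus HGF, with a slope of -0.55 ± 0.10 (limma, adjusted p = 0.00632).

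For the next lists too, 2.53% of all genes were called higher and 6.46% lower. Of 10 heme clearance genes 2 were called lower and none higher, with a median of -0.20: the heme transporter gene Slc48a1 (-0.58 ± 0.11) and Lrp1, the hemopexin receptor (-0.45 ± 0.08; limma, adjusted p = 0.0239 and 0.0197). Another Lrp1 probe set gave 0.10. The 21 zinc genes were 18 transporters, the metal sensor Mtf1 and the metallothioneins Mt3 and Mt4, with a median of -0.03. Of these 2 were called higher and none lower: the importer gene Slc39a10 (1.03 ± 0.18) and the Golgi transporter gene Slc30a7 (0.41 ± 0.09; limma, adjusted p = 0.0186 and 0.0385). Of 15 copper genes 3 were called lower and none higher, with a median of -0.10: the copper pump gene Atp7b (-0.71 ± 0.08), the copper chaperone gene Ccs (-0.40 ± 0.08) and Slc31a2 (-0.32 ± 0.08; limma, adjusted p = 0.00533, 0.0353 and 0.0489). Another Atp7b probe set gave -0.11. Whichever pair was left out, the adjusted p was at least 0.0523 for Slc48a1, 0.0536 for Lrp1, 0.0736 for Ccs and 0.11 for Slc31a2 (limma). It reached 0.0664 for Slc39a10 and 0.159 for Slc30a7. The IL-6 reference list gave 6 of 10 called higher and none called lower, with a median of 0.59.

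Genes most like the members were taken by Pearson r over the 18 arrays among 2210 genes with an SD of at least 0.3, as a description, since all arrays share the culture's time course. Hamp was closest to Pak6 (0.83), Fem1b (0.71) and Pim1 (0.71). Slc39a14 was closest to Stat3 (0.90), Fga (0.90) and Tiparp (0.88). Mt1 was closest to Fgfr4 (0.97), Mt2 (0.96) and Rrp12 (0.95), and Mt2 to Mt1 (0.96), Fgfr4 (0.93) and Ppif (0.92). Between members the highest other values were Lcn2 with Mt1 (0.90) and Mt2 (0.81), Hamp2 with Mt1 (0.72) and Hp with Hpx (0.70).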

How the data were processed

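RNA from 18 dishes was hybridised to 1-colour Affymetrix mouse arrays, 1 array per dish. The deposited values are read as log2 signals from their range (2.095 to 15.049); how the authors summarized and normalized them is not given in the sources used here. They were used as deposited, and every column belonged to a sample (0 unused). Of 45101 probe sets, 34958 named 1 gene, 932 several and 9211 none; 64 array controls were left out, and the probe set with the highest mean stood for each of 18193 genes.

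Models were fitted in limma 3.58.1 across all genes, with Benjamini-Hochberg adjustment and a threshold of 0.05. They compared IL-6 with the controls at 0 and 4 h (17 arrays), IL-6 plus HGF with the controls at 8, 12 and 24 h (hour as block), the change between these, trends on log2 hours, and the -5 h control. The fits were tested on simulated data. Members and lists were chosen with earlier results of these data known. All members were named, with up to 4 called genes per list and the 3 genes most like each variable member. Alternatives covered scaling, filters, variance models, controls, time scales and each array left out; 2 were added after the data were seen: the 4 h pair joined to the matched hours, and a second form of quantile normalization. The planned form was first run over 1 probe set per gene and, once its result was seen, over all probe sets; both are reported. Protein sequences were not used here.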

Additional observations from a re-analysis of the deposited data

Results flagged for a closer look

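Hamp was flagged because its stimulated minus control difference at 24 h had the opposite sign to those at 4, 8 and 12 h, in both probe sets: -0.76 in the brighter and -0.75 in the other. Each hour is 1 pair of arrays, and this difference between hours was not tested.

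Hamp2 (its brighter probe set) was flagged for 1 array, IL-6 plus HGF at 5 h, at 7.95, which stood above the other 7 arrays of that group by 0.560 of the group's range. It was the only such flag among 66 groups of arrays examined, and chance flags about 1 group in 20.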

How the results depend on the processing

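The labels carry no replicate numbers, so arrays were paired by hour only, as the block of the matched comparison. Where members were called, 35 of 41 recomputed counts stayed within 1.5 times the main count. With all 5 controls, 1 member passed in the IL-6 comparison in place of 0. Without the hour block 0 passed at the matched hours in place of 1, and leaving out 1 pair gave 1 to 2. Without genes under the 40th percentile 5 members, in place of 3, were called lower under IL-6 plus HGF. Leaving out 1 control gave 0 to 2 members called lower in the control trend, in place of 3.

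Directions turned for Lcn2 with all 5 controls (0.13) and, at the matched hours, after centring (-0.01), for Id1 in the fit of 17 arrays (-0.25), and for the Hamp slopes without 24 h (-0.41 with IL-6 plus HGF, -0.27 in the controls). Leaving out 1 array or pair moved the IL-6 difference over -0.16 to 0.50 for Mt1, -0.11 to 0.83 for Mt2 and -0.06 to 0.02 for Hpx. At the matched hours it moved Mt1 over -0.14 to 0.35, Mt2 over -0.06 to 0.35, Id1 over -0.17 to 0.39, Lcn2 over 0.00 to 0.06 and Smad6 over -0.12 to 0.10. It moved the change in the Hamp difference over -1.03 to 0.52, the Hamp slope with HGF over -0.41 to 0.27 and that in the controls over -0.27 to 1.32. The control slopes of Klf9 (0.03 without 24 h, range -0.28 to 0.03) and Zbtb16 (-0.01 without 24 h and 0.00 after quantile normalization over 1 probe set per gene, range -0.04 to 0.03) turned too. The cause was not tested.

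Counts over all genes moved more. In the IL-6 comparison 4 became 12 with every probe set and 22 with all 5 controls. At the matched hours 1637 became 142 without the block, 1046 with the 4 h pair added, and 585 to 843 with a pair left out. The change of effect gave 4, against 2 after centring, 357 with a spline and 0 to 26 with an array left out. The trend with HGF gave 2020, and 244 to 3095 with an array left out, the lowest without 24 h. The control trend gave 657, against 988 without dim genes, 1685 on plain hours and 23 to 666 with an array left out. The trend difference gave 18, against 29 without dim genes, 42 with a robust variance, 7 with every probe set, 46 on plain hours, 1 without 24 h and 0 to 44 with an array left out. The IL-6 trend gave 0, against 222 with a robust variance, 2 after centring, 1 on plain hours and 0 to 12 with an array left out.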
